A study of Mus musculus with 16 samples.

Results

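Genes that neighbour Neil3 on mouse chromosome 8 were followed in CA1, the hippocampal subfield whose pyramidal cells send the main output of the hippocampus: Dctd, Aga, Vegfc, Spcs3, Wdr17, Gpm6a, Hpgd, Scrg1, Sap30 and Hmgb2. They were taken by symbol from genes lying within 6 Mb of Neil3, and are 10 of the 17986 genes present in both expression tables. The annotation (RefSeq, GRCm38.p6) places 116 genes in that interval, of which 25 were in both tables. Dctd and Aga lie on the centromeric side of Neil3 (chr8:53586867-53639065, minus strand), and the other 8 lie on the telomeric side.

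All mice were males of a C57Bl6 background aged 3 to 6 months. One genotype is labelled wild type and the other Neil3-/-, and each was sampled directly from the home cage (2 libraries per genotype) or after spatial exploration (3 libraries per genotype). Exploring mice were trained in an open field arena of 50 cm by 50 cm for 1 week, with 20 min each day, and their brains were taken 20 min after the final session. CA1 was collected by laser dissection from frozen sections of 8 µm, so each library holds all cell types of the dissected strip. The mutant allele's design and the strain of the cells in which it was made are not given in the sources used here.

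Neil3 encodes a DNA glycosylase that removes oxidised bases. Its values were higher under the Neil3-/- label than under the wild type label. Values are in FPKM, fragments scaled to transcript length and library depth. The home cage libraries labelled wild type both list Neil3 at 0, whereas those labelled Neil3-/- hold 13.77 and 15.22 FPKM. Exploration libraries labelled wild type list 0, 0 and 0.05 FPKM, whereas those labelled Neil3-/- hold 15.13, 11.85 and 8.35 FPKM. The groups are therefore called WT-labelled and KO-labelled, and every direction below is that of the libraries labelled KO relative to those labelled WT. If the labels were exchanged, each of these directions would turn. Whether they were exchanged was not tested, and FPKM values do not show which part of Neil3 the counted fragments came from.

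Genes close to a targeted locus are inherited together with it, because recombination seldom separates closely linked genes during backcrossing. A mutant strain can therefore carry, around the targeted gene, a stretch of chromosome from the strain in which the allele was made. The 10 genes have unrelated functions, and what they share is this position. They encode 3 enzymes (Aga, Dctd and Hpgd), 2 secreted proteins (Vegfc and Scrg1), 2 membrane proteins (Spcs3 and Gpm6a), 2 chromatin proteins (Sap30 and Hmgb2) and the WD-repeat protein Wdr17.

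The sequences just upstream of Vegfc, Wdr17 and Dctd are shown because these genes differed between the labelled genotypes in every library, with a different promoter composition in each. Each is the 250 bases before the outermost RefSeq start (GRCm38.p6). For Vegfc it is chr8:54077282-54077531 on the plus strand, for Wdr17 chr8:54726980-54727229 on the minus strand and for Dctd chr8:48098842-48099091 on the plus strand. Capitals mark a GC box (GGGCGG on either strand), a CCAAT box (CCAAT) or a TATA box (TATAAA).
Vegfc: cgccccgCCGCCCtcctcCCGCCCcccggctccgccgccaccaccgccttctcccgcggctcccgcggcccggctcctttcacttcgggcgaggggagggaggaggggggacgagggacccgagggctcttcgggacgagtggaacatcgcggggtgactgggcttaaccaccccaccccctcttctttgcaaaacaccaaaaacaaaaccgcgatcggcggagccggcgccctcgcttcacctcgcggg
Wdr17: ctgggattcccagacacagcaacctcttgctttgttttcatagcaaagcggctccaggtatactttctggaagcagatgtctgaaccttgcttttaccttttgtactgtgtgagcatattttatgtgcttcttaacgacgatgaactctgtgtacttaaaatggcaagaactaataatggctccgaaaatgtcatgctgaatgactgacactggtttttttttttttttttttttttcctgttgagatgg
Dctd: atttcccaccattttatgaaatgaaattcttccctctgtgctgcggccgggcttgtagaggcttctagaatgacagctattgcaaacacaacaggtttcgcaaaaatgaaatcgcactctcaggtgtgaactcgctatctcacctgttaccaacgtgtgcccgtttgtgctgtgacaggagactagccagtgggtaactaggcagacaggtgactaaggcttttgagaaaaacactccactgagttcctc

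The Vegfc window held 2 GC boxes, a GC content of 71.6% and an observed over expected CpG ratio of 0.96. The Wdr17 window held none of the 3 motifs, with a GC content of 38.8% and a CpG ratio of 0.43. The Dctd window also held none, with a GC content of 47.2% and a CpG ratio of 0.50. Over the 32851 windows of this length in the RefSeq table, the median GC content was 52.4% and the median CpG ratio 0.37, and 32.7% held a GC box, 33.8% a CCAAT box and 12.4% a TATA box. Matches of one motif can overlap those of another, and none did in these windows. Wdr17 has 4 start windows in the table and Dctd 3, and which start is used in CA1 was not tested for any of these genes. Bases just downstream of the window were found in a GENCODE transcript of the gene for Dctd, but not for Vegfc or Wdr17. Of the 10 genes, 7 matched a window.

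Summed FPKM ran from 405718 to 466701 per library, with 11114 to 11623 genes at 1 FPKM or more, and depth came to an estimated 18000000 to 19100000 fragments each. Summed FPKM of 5 markers of CA1 pyramidal cells was 546.1 to 665.4 over the 10 libraries, against 1.16 to 2.26 for 5 markers of dentate granule cells. Another 6 samples, whose source is the learning condition, are not used here. Differences were tested with limma on log2(FPKM + 1) over the 11892 genes that reached 1 FPKM in at least 2 libraries. A gene is called at a Benjamini-Hochberg adjusted p under 0.05 over all those genes, and log2 changes on this scale understate the change of low genes. Nothing in the labels says how libraries were batched. The labels give no animal identity beyond 1 sample per library, so p-values measure the spread between these samples.

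Gpm6a was by far the most abundant of the 10, with a median of 686 FPKM over the 10 libraries, followed by Spcs3 at 33.7 FPKM, and neither range met that of another gene. Scrg1 (median 10.9 FPKM), Wdr17 (8.15 FPKM) and Sap30 (7.65 FPKM) had overlapping ranges. Below them stood Dctd at 2.04, Hpgd at 1.25, Aga at 1.21, Vegfc at 0.725 and Hmgb2 at 0.595 FPKM, each overlapping its neighbours in this order. Hmgb2 never reached 1 FPKM and was not tested with the others. Vegfc reached 1 FPKM in 3 WT-labelled and 0 KO-labelled libraries, and Aga in 5 and 1, so both were tested only through the group in which they were higher.

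**Figure D1:**
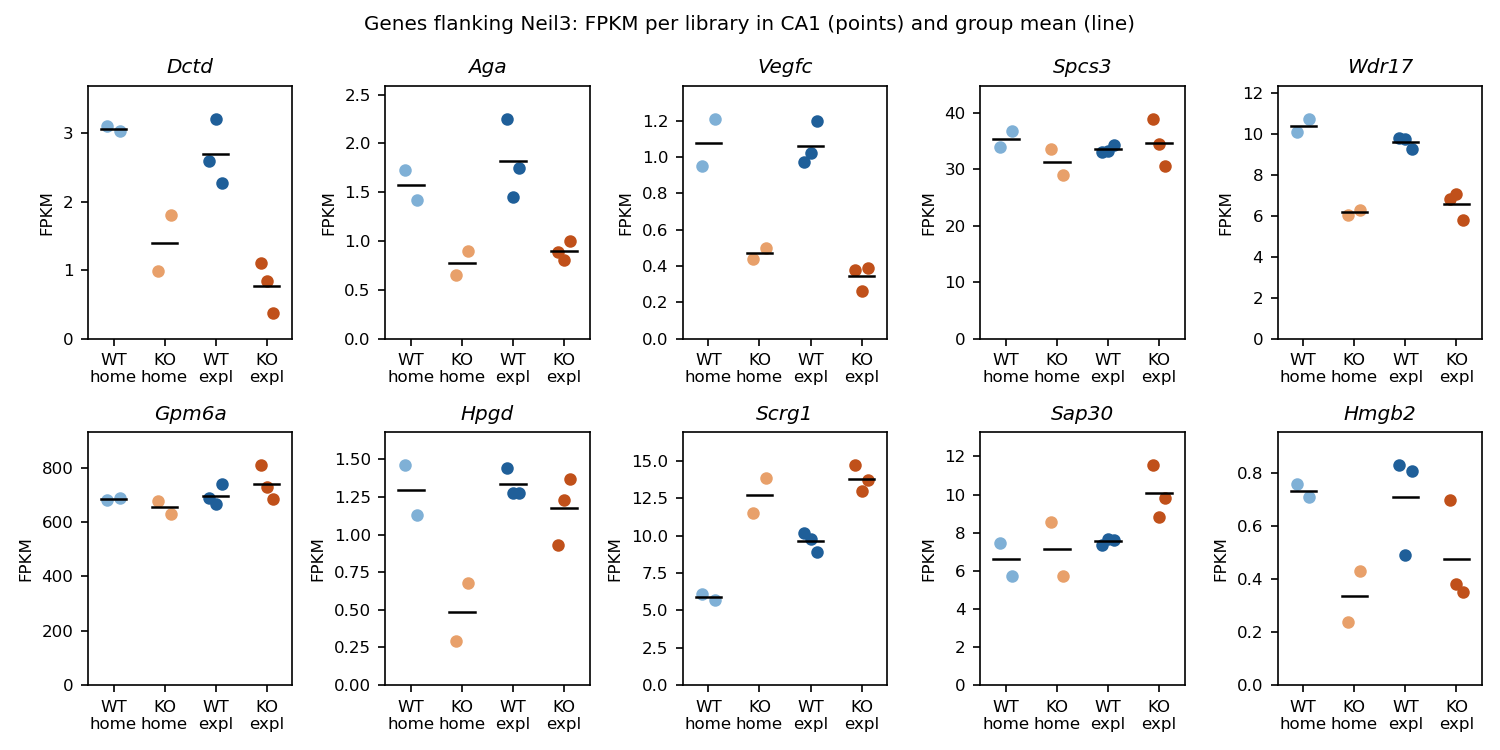
FPKM of each of the 10 genes in each library (points) with the group mean (line), for WT-labelled and KO-labelled home cage and exploration libraries, each panel with its own linear axis. Dctd, Aga, Vegfc and Wdr17 were lower, and Scrg1 higher, in all 5 KO-labelled libraries than in all 5 WT-labelled ones.

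Averaged over the environments, 4 of the 9 tested neighbours fell in the KO-labelled libraries (Dctd, Aga, Vegfc and Wdr17) and 1 rose (Scrg1). Without Vegfc and Aga, which the filter admitted through the WT-labelled libraries, 2 of 7 fell and 1 rose. Of all 11892 genes, 2.13% were called in this comparison, 1.35% lower and 0.774% higher. In the same 5 genes, and in no other of the 10, KO-labelled and WT-labelled libraries did not overlap. That separation was seen in 2.27% of all tested genes, 1.34% with the KO label below and 0.933% with it above. The genes were chosen with earlier results of these data known, so these counts describe them and do not test the interval.

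Wdr17 (gene ID 244484, chr8:54629281-54726979, minus strand) encodes a protein with WD repeats, a fold that commonly serves as a platform for protein binding. Its home cage values were 10.08 and 10.73 FPKM under the WT label and 6.05 and 6.3 FPKM under the KO label. After exploration it stood at 9.82, 9.77 and 9.24 FPKM under the WT label and at 6.82, 7.06 and 5.81 FPKM under the KO label. Each of the 5 KO-labelled libraries was below each WT-labelled library, and the mean was 9.93 ± 0.542 FPKM under the WT label and 6.41 ± 0.523 FPKM under the KO label (SD, n = 5 each), a ratio of 1.55. The averaged log2 change was -0.58 (SE 0.07, limma adjusted p = 0.00194), and Wdr17 ranked 13 among all tested genes by p. The fall was called in the home cage (-0.67, SE 0.10, limma adjusted p = 0.0132) and after exploration (-0.49, SE 0.09, limma adjusted p = 0.0319). The home cage call was lost without WT-labelled library 1 (adjusted p = 0.112) or KO-labelled library 2 (adjusted p = 0.0775), while the averaged call held in every alternative run. Its exploration call was lost in 7 of 18 alternatives (limma adjusted p up to 0.164).

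In bulk tissue, a lower level in each cell and fewer cells that express the gene cannot be told apart, here and for all the genes that follow.

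Dctd (gene ID 320685, chr8:48099092-48141667, plus strand) encodes deoxycytidylate deaminase, which turns dCMP into dUMP, the substrate from which thymidylate is made. It is the most distant of the 10, 5.45 Mb from Neil3. Home cage libraries held 3.11 and 3.03 FPKM under the WT label and 0.99 and 1.8 FPKM under the KO label. After exploration the WT-labelled libraries held 2.6, 3.21 and 2.28 FPKM and the KO-labelled ones 1.1, 0.84 and 0.37 FPKM. The groups did not overlap in either environment, and the means of 2.85 ± 0.393 and 1.02 ± 0.517 FPKM (SD, n = 5 each) gave a ratio of 2.79. The averaged log2 change was -0.93 (SE 0.14, limma adjusted p = 0.0104), and after exploration it was -1.08 (SE 0.17, limma adjusted p = 0.0281). In the home cage alone the log2 change was -0.79 (SE 0.21), which missed the threshold in limma (adjusted p = 0.068) and passed it with quantile normalization and without KO-labelled exploration library 1 or 3. Without WT-labelled home cage library 1 the averaged change was -0.92 with an adjusted p of 0.0566. With a pseudocount of 0.1 it was -1.46.

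Vegfc (gene ID 22341, chr8:54077532-54186454, plus strand) encodes a secreted growth factor that acts on endothelial cells through the receptors Flt4 and Kdr and is best known for the growth of lymphatic vessels. Its home cage values were 0.95 and 1.21 FPKM under the WT label and 0.44 and 0.5 FPKM under the KO label. After exploration they were 0.97, 1.02 and 1.2 FPKM under the WT label and 0.38, 0.26 and 0.39 FPKM under the KO label. The 5 WT-labelled libraries stood at 0.95 FPKM or more and the 5 KO-labelled ones at 0.5 FPKM or less, with means of 1.07 ± 0.126 and 0.394 ± 0.0888 FPKM (SD, n = 5 each) and a ratio of 2.72. These levels rest on an estimated 12 to 55 fragments per library. The averaged log2 change was -0.56 (SE 0.09, limma adjusted p = 0.013), and the change after exploration was -0.62 (SE 0.11, limma adjusted p = 0.0336). In the home cage it was -0.50 (SE 0.14, limma adjusted p = 0.0705), and of the alternatives run it was called only with no variance trend. Without WT-labelled home cage library 2 the averaged change was -0.51 with an adjusted p of 0.0549, and with a pseudocount of 0.1 it was -1.22. The Vegfc interval overlaps the predicted gene Gm33153, and use of strand in counting is not given in the sources used here.

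Aga (gene ID 11593, chr8:53511683-53523422, plus strand) encodes aspartylglucosaminidase, a lysosomal enzyme that cleaves the bond between asparagine and the sugar chain of glycoproteins and whose loss causes a lysosomal storage disease. It is the nearest of the 10 to Neil3, with a gap of 0.0634 Mb. The home cage libraries held 1.73 and 1.42 FPKM under the WT label and 0.65 and 0.9 FPKM under the KO label. After exploration the values were 2.25, 1.45 and 1.75 FPKM under the WT label and 0.89, 0.8 and 1 FPKM under the KO label. The lowest WT-labelled library, at 1.42 FPKM, was above the highest KO-labelled one, and the means were 1.72 ± 0.333 and 0.848 ± 0.131 FPKM (SD, n = 5 each), a ratio of 2.03. The averaged log2 change was -0.55 (SE 0.10, limma adjusted p = 0.0244). The change was -0.54 (SE 0.16, adjusted p = 0.0857) in the home cage and -0.56 (SE 0.13, adjusted p = 0.0764) after exploration, neither called by limma. Of the 5 averaged calls this was the least stable. It was lost with no filter (adjusted p = 0.0557), without the WT-labelled home cage libraries 1 (0.115) or 2 (0.0548), without the first KO-labelled one from the home cage (0.0556), without WT-labelled exploration library 1 (0.0597) or 3 (0.0613), or KO-labelled exploration library 2 (0.0513), with log2 changes of -0.50 to -0.59 in these fits.

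Scrg1 (gene ID 20284, chr8:57455882-57479360, plus strand) encodes a small secreted protein first described as a transcript raised in scrapie-infected brain. It was the only one of the 10 that was higher in every KO-labelled library. Home cage values were 6.1 and 5.72 FPKM under the WT label and 11.54 and 13.87 FPKM under the KO label, a ratio of 2.15. After exploration it stood at 10.18, 9.79 and 8.88 FPKM under the WT label and at 14.7, 13 and 13.74 FPKM under the KO label, a ratio of 1.44. The KO-labelled libraries of both environments held 11.54 to 14.7 FPKM, while the WT-labelled home cage libraries were the lowest of all. The log2 change was 0.98 in the home cage (SE 0.11, limma adjusted p = 0.00212), 0.48 after exploration (SE 0.09, limma adjusted p = 0.0373) and 0.73 averaged (SE 0.07, limma adjusted p = 0.000381). The home cage and averaged calls held in every alternative run, whereas the exploration call was lost in 11 of 18 (limma adjusted p up to 0.171). An estimated 67 to 179 fragments per library stood behind these values.

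Markers of astrocytes moved with Scrg1. The summed FPKM of Gfap, Aqp4, Aldh1l1, Slc1a3 and Gja1, all 5 of which were above 0, was 57.99 to 64.03 in the WT-labelled home cage libraries and 90.42 to 116.5 in the KO-labelled ones. After exploration it was 69.09 to 88.87 under the WT label and 89.15 to 100.7 under the KO label, so that sums of the labelled genotypes did not overlap in either environment. Averaged over the environments, Gfap, the intermediate filament of astrocytes, rose by 0.80 (SE 0.12, limma adjusted p = 0.0119) and the water channel Aqp4 by 0.49 (SE 0.08, limma adjusted p = 0.0176) on the log2 scale. The other 3 markers had log2 changes of 0.17 to 0.37 and were not called. In the home cage, summed markers of oligodendrocytes and their precursors, microglia and endothelium were also higher in both KO-labelled than in both WT-labelled libraries. The interneuron sum was higher too, but 4 of its 6 markers fell and 2 rose, with 0 called. The dentate granule sum was higher at low values (1.49 to 2.13 against 1.16 to 1.21 FPKM), with 1 marker tested. The sum of CA1 pyramidal markers was lower (588.8 to 629.9 against 634.4 to 659.9 FPKM). Of its 5 markers, however, 3 rose (1 called) and 2 fell (1 called). Choroid plexus markers had a lower sum (9.37 to 14.15 against 17.66 to 235 FPKM). After exploration none of these other lists separated the labelled genotypes. The part of astrocytes, or of the other cell types, in the Scrg1 difference was not tested.

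**Figure D2:**
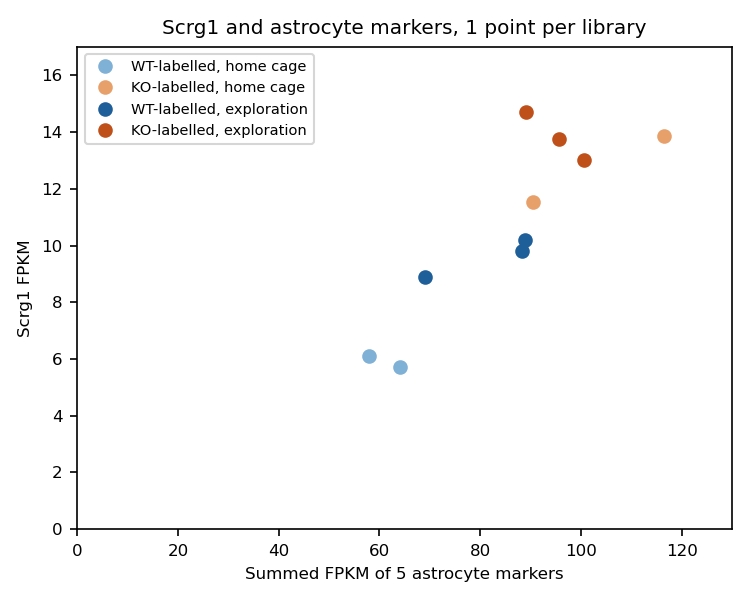
Scrg1 FPKM (vertical axis) against the summed FPKM of 5 astrocyte markers (horizontal axis), 1 point per library, with the 4 groups told apart by colour. KO-labelled libraries stood above 11.5 FPKM of Scrg1 and at marker sums of 89.15 or more, and WT-labelled libraries below both.

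The remaining 5 neighbours were not called in any genotype comparison. Hpgd (gene ID 15446, chr8:56294552-56321046, plus strand) encodes the dehydrogenase that inactivates prostaglandins. Its home cage values were 1.46 and 1.13 FPKM under the WT label and 0.29 and 0.68 FPKM under the KO label, with no overlap. After exploration the values overlapped, at 1.44, 1.28 and 1.28 FPKM under the WT label and 0.93, 1.23 and 1.37 FPKM under the KO label. The log2 change was -0.64 in the home cage (SE 0.16, limma adjusted p = 0.054) and -0.10 after exploration (SE 0.13, limma adjusted p = 0.721). An estimated 9 to 45 fragments per library stood behind Hpgd. The home cage change passed the threshold without KO-labelled exploration library 1 or 3, and with no variance trend. With 2 libraries per genotype, being apart in the home cage says little by itself. Spcs3 and Gpm6a were apart there as well, with log2 changes of only -0.18 and -0.07 (limma adjusted p = 0.439 and 0.78). The share of all tested genes that are apart within a single environment was not computed.

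Sap30 (gene ID 60406, chr8:57482702-57487860, minus strand) encodes a subunit of the Sin3 histone deacetylase complex, and its gene starts and ends between Scrg1 and Hmgb2. Home cage values were 7.45 and 5.75 FPKM under the WT label and 8.55 and 5.7 FPKM under the KO label, which overlap. After exploration it stood at 7.35, 7.68 and 7.63 FPKM under the WT label and at 11.53, 8.82 and 9.82 FPKM under the KO label, which do not. Its log2 change after exploration was 0.36 (SE 0.14, limma adjusted p = 0.216), and the averaged change was 0.22 (SE 0.11, limma adjusted p = 0.278).

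Hmgb2 (gene ID 97165, chr8:57511843-57515999, plus strand) encodes a DNA-bending chromatin protein that is abundant in dividing cells. Its values were 0.76 and 0.71 FPKM under the WT label and 0.24 and 0.43 FPKM under the KO label in the home cage. After exploration they were 0.83, 0.49 and 0.81 FPKM under the WT label and 0.7, 0.38 and 0.35 FPKM under the KO label. The groups were apart in the home cage, as were those of the uncalled Spcs3 and Gpm6a, and overlapped after exploration. An estimated 11 to 41 fragments per library stood behind Hmgb2. With no filter on low values (17803 genes tested) the averaged log2 change of Hmgb2 was -0.30 (SE 0.09, limma adjusted p = 0.155), and in the home cage it was -0.38 (SE 0.14, limma adjusted p = 0.218). Summed FPKM of 4 markers of proliferating cells did not exceed 0.17 in any library.

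Spcs3 (gene ID 76687, chr8:54520433-54529998, minus strand) encodes a subunit of the signal peptidase complex, which cuts the signal peptide from proteins entering the endoplasmic reticulum. It held 33.92 and 36.78 FPKM under the WT label and 33.54 and 28.95 FPKM under the KO label in the home cage. After exploration it held 33.08, 33.25 and 34.21 FPKM under the WT label and 38.91, 34.46 and 30.56 FPKM under the KO label. Its averaged log2 change was -0.07 (limma 95% interval -0.22 to 0.09, adjusted p = 0.629). Its position, 0.881 Mb from Neil3, lies between those of Vegfc and Wdr17, both of which fell.

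Gpm6a (gene ID 234267, chr8:54779434-55060878, plus strand) encodes a neuronal membrane glycoprotein of the proteolipid family that promotes the outgrowth of neurites and filopodia. It held 681.26 and 688.93 FPKM under the WT label and 679.44 and 629.94 FPKM under the KO label in the home cage. After exploration it held 687.8, 665.96 and 739.45 FPKM under the WT label and 808.81, 727.79 and 683.49 FPKM under the KO label. The averaged log2 change was 0.01 (limma 95% interval -0.14 to 0.15, adjusted p = 0.959). Its sign turned in 4 of the alternatives.

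Taken by environment, 2 of the 9 tested genes were called in the home cage (Wdr17 lower and Scrg1 higher), where 3.57% of all tested genes were called, 2.12% higher and 1.45% lower. After exploration 4 were called (Vegfc, Wdr17 and Dctd lower and Scrg1 higher), where 0.597% of all tested genes were called, 0.193% higher and 0.404% lower. With Vegfc left out, which the filter admitted through the WT-labelled libraries, Wdr17, Dctd and Scrg1 remain. The exploration calls were close to the threshold. Without any one of WT-labelled exploration libraries 1, 2 or 3, or KO-labelled exploration library 2, limma called 0 of the 4. Without KO-labelled exploration library 3 it called 1, and without KO-labelled exploration library 1 or WT-labelled home cage library 1 it called 2. The direction of all 4 held in each of these fits.

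The 2 environments were then compared for the size of the genotype difference. None of the 9 tested genes was called by limma for genotype by environment, a comparison in which 0.875% of all genes were called (0.362% with a positive and 0.513% with a negative value), and 2 had an unadjusted p under 0.05. For Scrg1 the difference after exploration was smaller by 0.50 on the log2 scale than in the home cage (SE 0.14, unadjusted p = 0.00425, limma adjusted p = 0.101), and it was called without KO-labelled home cage library 1. For Hpgd it was larger by 0.53, that is, less negative (SE 0.21, unadjusted p = 0.0258, limma adjusted p = 0.23). Differences between environments for Aga, Vegfc and Wdr17 were -0.02, -0.12 and 0.18, each within 1.5 SE of 0.

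**Figure D3:**
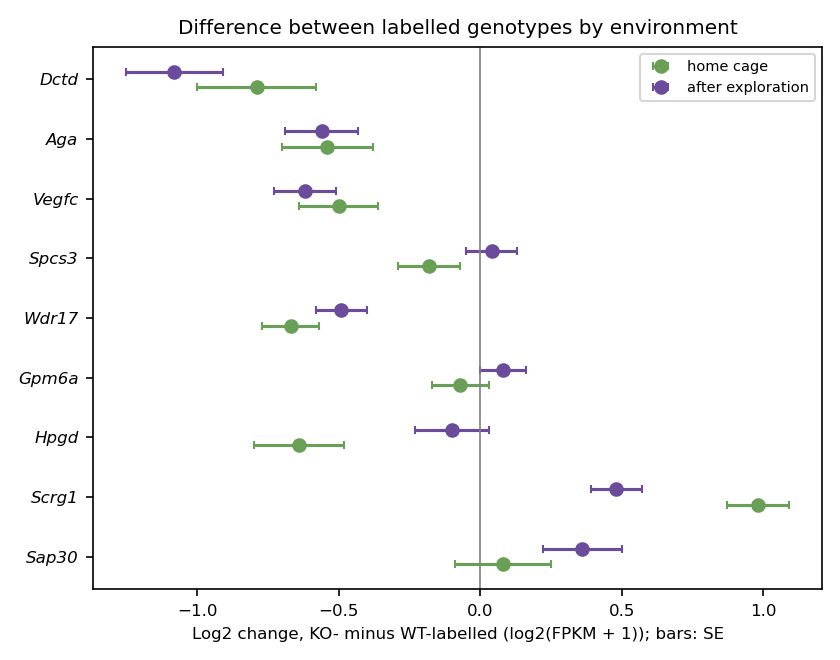
Log2 change of FPKM + 1, KO-labelled minus WT-labelled, for the 9 tested genes in the home cage and after exploration, with the SE of the limma fit as bars. Scrg1 and Hpgd moved most between the environments, from 0.98 to 0.48 and from -0.64 to -0.10.

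Averaged over the labelled genotypes, 2 of the 9 genes were higher after exploration, Scrg1 by 0.37 (SE 0.07, limma adjusted p = 0.0036) and Sap30 by 0.32 (SE 0.11, limma adjusted p = 0.043). Of all tested genes 31.9% were called in this comparison, 12.6% higher and 19.2% lower. The neighbours' share of 22.2%, all of it higher, was below the 31.9% and above the 12.6%, and rests on 2 genes. The Sap30 call was lost with no filter (adjusted p = 0.0873), with no variance trend (0.0505), without either second home cage library (0.181 for the WT label and 0.207 for the KO label), without WT-labelled exploration library 1 (0.0687), 2 (0.0741) or 3 (0.076), or KO-labelled exploration library 1 (0.0739) or 3 (0.0543). Each environment stands in its own table, so environment and table cannot be told apart.

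The called neighbours were set against the other tested genes within 20 Mb of Neil3 and against all remaining tested genes. Of the 4 tested genes within 1 Mb of Neil3 (Aga, Vegfc, Spcs3 and Wdr17), 3 were called in the averaged comparison, and without Aga and Vegfc, admitted through the WT-labelled libraries, 1 of 2. Between 1 and 6 Mb 2 of 14 were called (Scrg1 and Dctd), and between 6 and 20 Mb 3 of 160, or 1.88%, against 2.08% of the 11713 other tested genes. Uncalled genes lay among called ones: Spcs3 between Vegfc and Wdr17, Gpm6a and Hpgd between Wdr17 and Scrg1, and Sap30 beside Scrg1.

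**Figure D4:**
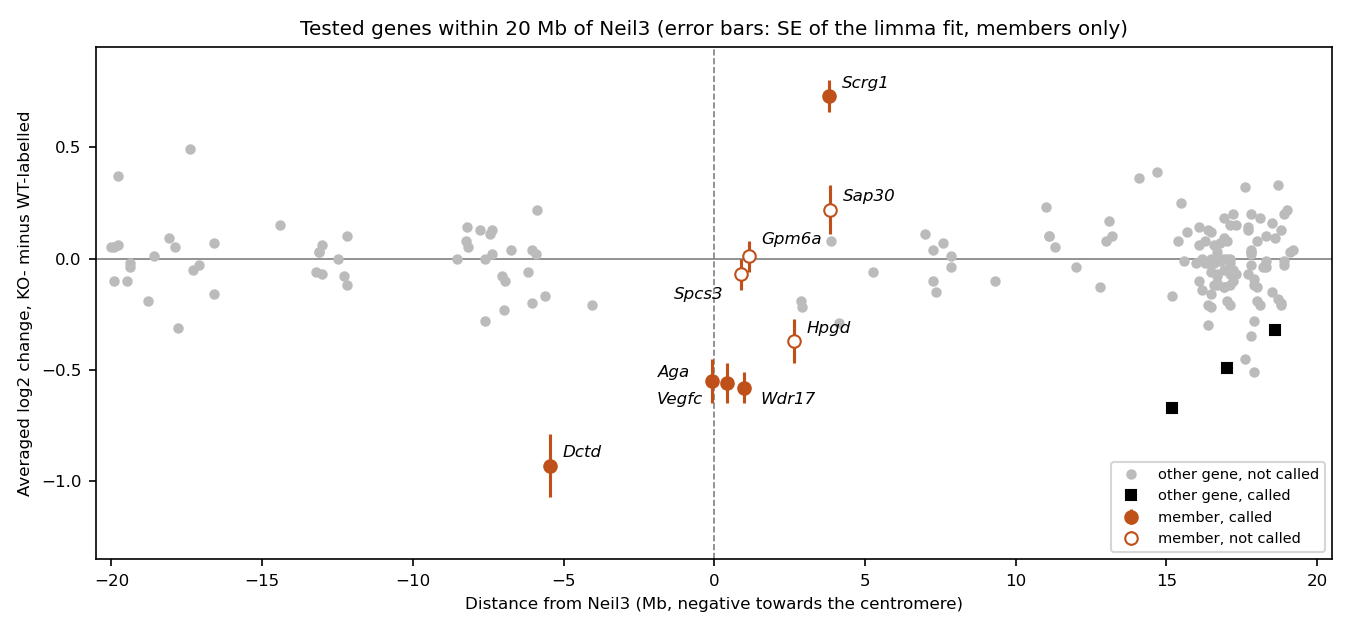
Averaged log2 change of FPKM + 1, KO-labelled minus WT-labelled, of every tested gene within 20 Mb of Neil3 against distance from Neil3 in Mb, with the SE as bars for the 9 neighbours followed here. The neighbours nearest Neil3 lie between -0.58 and 0.01, with Dctd (-0.93) and Scrg1 (0.73) as the extremes of the window. Neil3 itself is not drawn.

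Of the 15 other genes within 6 Mb that were in both tables, 9 were tested. Averaged over the environments limma called 0 of them, with 3 at an unadjusted p under 0.05, and in the home cage likewise 0, with 3. After exploration it called 1, Galntl6 (log2 change -0.50, SE 0.10, adjusted p = 0.0471), a gene of the family that starts O-linked glycan chains. AW046200, a long noncoding RNA 4.01 Mb from Neil3 and below the filter, had 0.23 to 0.43 FPKM in the WT-labelled and 0 to 0.11 FPKM in the KO-labelled libraries. Cdkn2aip, 5.87 Mb from Neil3, was apart the other way, at 5.05 to 5.9 FPKM under the WT label and 6.02 to 6.96 FPKM under the KO label. Its averaged log2 change was 0.22 (SE 0.07, limma adjusted p = 0.106). Both genes were picked out after their values were seen, and 2.27% of all tested genes were apart in either direction.

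Partners and relatives of the encoded proteins were counted in 8 lists: the signal peptidase complex, the Sin3 deacetylase complex, VEGF ligands with their receptors and processing factors, the M6 proteolipids, the HMGB family, prostaglandin metabolism, pyrimidine deoxynucleotide supply and lysosomal glycoprotein breakdown. Of their 61 tested genes, limma called 0 in the averaged genotype comparison (7 at an unadjusted p under 0.05) and 0 after exploration (5 at an unadjusted p under 0.05). In the home cage it called 1, or 1.64%, against 3.57% of all tested genes. This was the prostaglandin reductase Ptgr2, which fell by 0.46 on the log2 scale (adjusted p = 0.0391). The median log2 change of the 61 genes, averaged over the environments, was 0.04, against -0.01 over all tested genes. Of the 16 Sin3 complex genes 9 were higher and 7 lower beside Sap30, and of the 13 lysosomal genes 7 were higher and 6 lower beside Aga, none called. The Vegfc receptors Kdr and Flt4 were under the filter.

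Over the 10 libraries the 4 genes that fell followed each other, with Pearson r of 0.75 to 0.9 over their 6 pairs, while Scrg1 ran against them (r of -0.85 to -0.63). These coefficients are descriptions, since the 10 libraries share 4 groups and these genes were picked by their genotype difference in the same libraries. The signs of r largely follow from that choice. Of all tested genes, those most like Wdr17 over the 10 libraries were Nnt (r = 0.979) and 2900092D14Rik (r = 0.975). For Dctd they were Hnrnpm (0.975) and Sptbn4 (0.963), and for Vegfc Wdfy1 (0.962) and Bdh1 (0.960). Aga was most like Pthlh (0.941) and Zscan25 (0.932), and Cpe (0.945) was among the 2 genes most like Scrg1. Cpe lies on chromosome 8 as well, 11 Mb from Neil3 on the telomeric side.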

How the data were processed

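FPKM values per gene were deposited by the authors in 2 tables, one for the 4 home cage and one for the 6 exploration libraries. Per the submitters' processing notes, reads were handled with HISAT, StringTie, GATK, Bowtie2 and RSEM on GRCm38 (mm10), with versions and roles not given in the sources used here. Whether both tables were normalized together is also not given. They were joined on gene ID (17986 genes), and the 10 genes were matched by symbol.

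limma 3.58.1 in R 4.3.3 was fitted to log2(FPKM + 1), with a variance trend, on the 11892 genes that reached 1 FPKM in 2 or more libraries. All 10 libraries entered with 1 mean per group (6 residual and 5.71 prior degrees of freedom), and p-values were Benjamini-Hochberg adjusted over all genes. The script was tested on simulated data. The steps between low FPKM values gave an estimate of depth. The 5 comparisons were genotype in each environment, genotype averaged, environment averaged and their interaction. Alternatives changed the pseudocount (0.1), the filter (none, or 5 FPKM), the scaling, the variance model, the samples fitted and each library in turn. Named genes were Neil3, the 10 genes, other called genes within 6 Mb, up to 3 called genes per partner list and the 2 most correlated genes of each called neighbour, of which 1 is not reported here. AW046200, Cdkn2aip, Lpl, Isyna1, Ap1m1 and D8Ertd82e were named outside this rule, after their values were seen. Members and lists were chosen with earlier results of these data known. Positions and promoter windows are RefSeq GRCm38.p6.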

Additional observations from a re-analysis of the deposited data

How the results depend on the processing

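Of the 17 log2 changes followed for the neighbours, 289 values were computed under alternatives: 233 kept direction and side of the threshold, 52 kept direction but missed it, and 4 turned in sign. All 4 concern the averaged change of Gpm6a, which was -0.01 with quantile normalization, -0.02 without KO-labelled home cage library 1, -0.01 without WT-labelled exploration library 2 and -0.02 without KO-labelled exploration library 1. Its values on leaving out a library ran from -0.02 to 0.04. The number of neighbours called in the home cage, 2, became 4 with no variance trend and 1 to 4 on leaving out a library. The 4 called after exploration became 1 with no filter, 2 with a filter of 5 FPKM, 1 with only the groups compared and 0 to 4 on leaving out a library. The 5 averaged calls became 2 with a filter of 5 FPKM, which removes Aga, Vegfc and Dctd from the test, and 3 to 5 on leaving out a library. The 2 environment calls became 1 with no filter and 1 to 3 on leaving out a library, and the 0 interaction calls 0 to 1. The cause of the other shifts was not tested. Averaged calls of Wdr17 and Scrg1 held in all alternatives, with adjusted p up to 0.0161 and 0.00438.

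Low depth limits Vegfc, Hpgd and Hmgb2, with 55 or fewer estimated fragments per library; fragments were not estimated for Dctd, Aga, Wdr17 and Gpm6a. No paired analysis was possible because the labels give no replicate numbers.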

Other observations

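Beyond the 6 Mb interval, 3 genes at 15 to 19 Mb from Neil3 on the telomeric side were called in the averaged comparison, all lower under the KO label. They are named after their values were seen, and 1.88% of the 160 tested genes between 6 and 20 Mb were called, against 2.08% elsewhere. Lpl, which encodes lipoprotein lipase, was 15.2 Mb away and had an averaged log2 change of -0.67 (SE 0.11, limma adjusted p = 0.019). Its home cage values were 27.07 and 32.01 FPKM under the WT label and 14.87 and 11.69 FPKM under the KO label. After exploration they were 27.59, 23.06 and 35.32 FPKM under the WT label and 22.13, 27.09 and 22.46 FPKM under the KO label, with overlap. Isyna1, which encodes the first enzyme of inositol synthesis, was 17 Mb away and had a change of -0.49 (SE 0.09, limma adjusted p = 0.0244). Ap1m1, a subunit of a clathrin adaptor, was 18.6 Mb away and had a change of -0.32 (SE 0.06, limma adjusted p = 0.0249).

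D8Ertd82e, on the centromeric side, stood at 6.35 and 10.17 FPKM in the KO-labelled home cage libraries and at 3.06 to 4.16 FPKM in the other 8 libraries. Its log2 change in the home cage was 0.99 (SE 0.18, limma adjusted p = 0.0195).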
